A study of Mus musculus with 18 samples.

Results

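The enzymes examined here break down amino acids and move 1-carbon groups in the liver. They are 35 genes listed by name as a functional group, a list drawn up with earlier results of these data known, and 32 of them were measured among 18194 genes on the arrays. Sds, Gls2 and Acmsd, which encode serine dehydratase, liver glutaminase and aminocarboxymuconate semialdehyde decarboxylase, were not analysed here. At the hours measured in both conditions, 19 of the 32 were lower in hepatocytes given IL-6 and then HGF than in control cells. The threshold was an adjusted p under 0.05 in limma, which 6.45% of all genes passed as lower. None of the 32 was higher, against 2.53% of all genes. In a fit that did not pair the hours, 5 of the 32 were lower. The largest differences were in Ddc, Chdh, Amdhd1, Tdo2, Gpt2 and Bhmt, which were between 2.91 and 8.14 times lower.

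Hepatocytes are the main site of amino acid catabolism in mammals. Aromatic amino acids, histidine and methionine are degraded there by chains of enzymes that are largely confined to liver and kidney, aminotransferases pass the nitrogen on towards urea, and the carbon enters gluconeogenesis or energy production. Methionine is turned into S-adenosylmethionine, the general methyl donor, and the product homocysteine is either methylated again, in liver also with betaine made from choline, or sent through transsulfuration to cysteine. Several of these genes, Tat and Tdo2 among them, are classical targets of glucocorticoids and glucagon, and their expression marks differentiated liver.

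Primary hepatocytes came from male C57BL/6N mice aged 8 to 12 weeks, with 1 animal or a pool of up to 3 for an experiment, and were kept below confluence on collagen I. They were held in serum-free medium with dexamethasone, a synthetic glucocorticoid, and then in starvation medium without it for 4 h before stimulation. Interleukin-6 (IL-6), the cytokine of the acute-phase response, was given at 40 ng/ml from 0 h, and hepatocyte growth factor (HGF), the ligand of the receptor Met, followed from 4 h at 40 ng/ml; the series asked how this sequence acts on the transcriptome of hepatocytes as they enter proliferation. Of the 18 arrays, 5 were unstimulated controls at 0, 4, 8, 12 and 24 h, 4 were IL-6 arrays at 1 to 4 h, 8 were IL-6 plus HGF arrays at 5, 6, 7, 8, 9, 10, 12 and 24 h, and 1 was a control at -5 h. By the hours of the protocol the array at -5 h fell before the starvation medium, so dexamethasone was then probably still present.

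Each condition and hour had 1 array, so the hours took the place of replicates, and the p-values cover no spread other than that between these dishes and hours. There were no IL-6 arrays without HGF after 4 h, so the addition of HGF and longer exposure to IL-6 cannot be told apart. Values are deposited log2 signals of 1 probe set per gene, so that a difference of 1 is 2-fold, and they cannot be set against each other between genes. The arrays had medians between 5.47 and 5.57, and each correlated with the others at 0.985 to 0.994 on average. Socs3, a direct target of IL-6 signalling, was higher by 3.51 (SE 0.32) under IL-6 in the first 4 h (limma, adjusted p = 2.4e-05). It was higher by 2.53 (SE 0.12) under IL-6 plus HGF at matched hours (limma, adjusted p = 0.00102). The 8 measured hepatocyte markers had a mean signal of 12.01 to 13.17 in the 5 controls and 11.62 to 12.87 under IL-6 plus HGF. That mean was lower under IL-6 plus HGF by 0.15, 0.34 and 0.39 at 8, 12 and 24 h. It joins unlike directions: of the 8 markers 2 were lower and 1 higher at an adjusted p under 0.05 in limma, against 6.45% and 2.53% of all genes. Alb, the albumin gene, differed by -0.04 (limma adjusted p = 0.751). Kupffer, endothelial, stellate and cholangiocyte marker lists had mean signals of 6.08 to 7.63 in control, IL-6 and IL-6 plus HGF cells. At the 3 matched hours the Kupffer list differed by -0.20, -0.37 and -0.07, the endothelial list by -0.14, -0.37 and -0.65, the stellate list by -0.33 to 0.01 and the cholangiocyte list by 0.10 to 0.20. A list of 5 nuclear RNAs, read as a sign of RNA quality, differed by 0.96, 0.02 and 0.36, and the part of these lists in the results below was not tested. The nuclear RNAs had a mean of 7.25 at 6 h of IL-6 plus HGF, beside 8.3 at 5 h and 8.4 at 7 h. In the controls at 0 and 4 h their mean was 8.57 and 7.53. In such bulk RNA fewer hepatocytes and less RNA per hepatocyte cannot be told apart.

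In the plot of all members by array, the blue fields of the IL-6 plus HGF columns form before 12 h in Ddc, Chdh, Tdo2 and Aass, while Tat, Hpd, Gnmt and Aass also turn blue along the control columns.

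**Figure D1:**
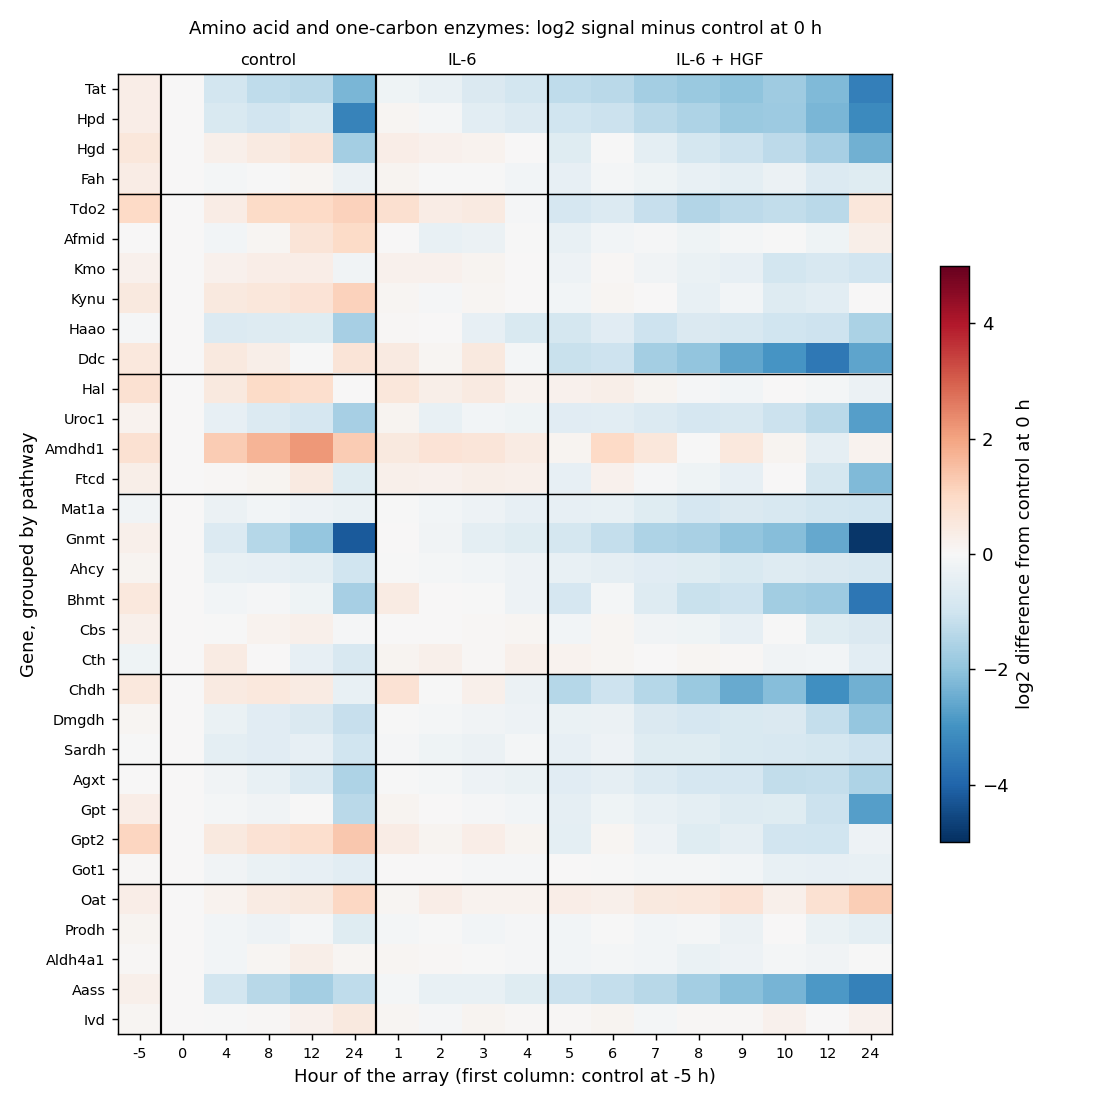
Log2 signal of the 32 measured enzymes on each of the 18 arrays, as the difference from the control at 0 h (colour, log2 units, red higher and blue lower); columns are hours within a condition and black horizontal lines separate the pathways. Gnmt at 24 h is the deepest field in both conditions, with -4.21 in control cells, and Oat is red under IL-6 plus HGF from 5 to 24 h.

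Promoter windows of the 6 members with the largest differences at matched hours are printed first. Windows run from 250 bases before to 50 bases after a RefSeq start site on build GRCm38.p6, and are written in the direction of the gene, with letters that matched a searched motif in capitals. Of the 35 genes 29 had such a window, 32 windows in all, and Ddc had 2 and Chdh 3, one for each RefSeq start site. Tdo2 encodes tryptophan 2,3-dioxygenase, the first enzyme of the kynurenine pathway. Ddc encodes aromatic L-amino acid decarboxylase, which makes the amines dopamine and serotonin. Bhmt encodes betaine-homocysteine methyltransferase, Gpt2 the mitochondrial alanine aminotransferase, Amdhd1 imidazolonepropionase of histidine breakdown, and Chdh choline dehydrogenase.
Tdo2, chr3:81975679-81975978, minus strand: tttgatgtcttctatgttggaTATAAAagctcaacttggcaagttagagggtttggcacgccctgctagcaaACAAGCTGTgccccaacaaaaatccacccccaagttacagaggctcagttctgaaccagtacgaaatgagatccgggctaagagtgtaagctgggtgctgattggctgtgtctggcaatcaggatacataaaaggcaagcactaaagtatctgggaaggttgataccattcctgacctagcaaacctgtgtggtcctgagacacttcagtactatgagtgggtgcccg
Ddc, chr11:11890359-11890658, minus strand: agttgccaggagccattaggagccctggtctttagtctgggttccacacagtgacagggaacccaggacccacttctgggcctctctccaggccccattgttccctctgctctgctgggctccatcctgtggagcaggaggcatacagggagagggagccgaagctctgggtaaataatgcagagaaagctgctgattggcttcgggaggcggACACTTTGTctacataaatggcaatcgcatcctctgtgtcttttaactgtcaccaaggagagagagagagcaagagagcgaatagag
Ddc, chr11:11898095-11898394, minus strand: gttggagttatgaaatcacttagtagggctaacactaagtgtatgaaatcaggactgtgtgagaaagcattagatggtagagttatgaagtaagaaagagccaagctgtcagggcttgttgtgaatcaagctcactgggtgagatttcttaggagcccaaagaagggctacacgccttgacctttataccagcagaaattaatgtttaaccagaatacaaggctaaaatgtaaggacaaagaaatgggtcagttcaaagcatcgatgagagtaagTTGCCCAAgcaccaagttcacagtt
Bhmt, chr13:93637709-93638008, minus strand: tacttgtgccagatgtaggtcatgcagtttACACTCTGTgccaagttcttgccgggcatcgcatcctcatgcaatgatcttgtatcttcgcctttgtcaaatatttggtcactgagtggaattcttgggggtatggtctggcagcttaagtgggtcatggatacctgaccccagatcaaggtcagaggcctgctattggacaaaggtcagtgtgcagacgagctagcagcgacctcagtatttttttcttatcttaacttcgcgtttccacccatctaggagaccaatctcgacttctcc
Gpt2, chr8:85492326-85492625, plus strand: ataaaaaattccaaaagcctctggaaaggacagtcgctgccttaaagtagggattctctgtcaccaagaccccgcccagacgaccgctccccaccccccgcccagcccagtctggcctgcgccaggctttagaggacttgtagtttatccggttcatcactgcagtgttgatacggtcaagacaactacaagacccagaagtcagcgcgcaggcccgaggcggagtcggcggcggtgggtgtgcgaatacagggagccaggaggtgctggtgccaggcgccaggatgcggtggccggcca
Amdhd1, chr10:93539984-93540283, minus strand: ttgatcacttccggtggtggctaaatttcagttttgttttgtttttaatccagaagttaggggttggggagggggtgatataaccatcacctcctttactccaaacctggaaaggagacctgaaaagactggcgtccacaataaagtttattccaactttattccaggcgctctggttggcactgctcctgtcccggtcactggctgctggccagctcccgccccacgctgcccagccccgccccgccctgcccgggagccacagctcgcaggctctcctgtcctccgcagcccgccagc
Chdh, chr14:30008750-30009049, plus strand: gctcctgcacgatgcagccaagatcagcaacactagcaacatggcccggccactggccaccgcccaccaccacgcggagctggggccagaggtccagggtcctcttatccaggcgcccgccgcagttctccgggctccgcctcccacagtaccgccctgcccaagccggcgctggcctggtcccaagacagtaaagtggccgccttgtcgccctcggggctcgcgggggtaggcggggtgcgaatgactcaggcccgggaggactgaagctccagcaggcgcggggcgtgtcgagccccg
Chdh, chr14:30021053-30021352, plus strand: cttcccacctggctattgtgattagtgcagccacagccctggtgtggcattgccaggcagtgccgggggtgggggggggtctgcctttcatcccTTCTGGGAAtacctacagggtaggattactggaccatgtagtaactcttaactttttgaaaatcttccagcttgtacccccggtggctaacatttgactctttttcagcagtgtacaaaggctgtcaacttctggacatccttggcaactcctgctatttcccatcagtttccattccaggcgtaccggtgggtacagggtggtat
Chdh, chr14:30022383-30022682, plus strand: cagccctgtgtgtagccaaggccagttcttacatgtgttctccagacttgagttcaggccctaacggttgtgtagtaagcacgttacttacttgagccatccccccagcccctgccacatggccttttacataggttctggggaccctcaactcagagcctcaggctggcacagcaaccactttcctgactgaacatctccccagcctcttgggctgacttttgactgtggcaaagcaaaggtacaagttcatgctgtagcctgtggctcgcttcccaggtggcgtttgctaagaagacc
The capitals are the letters TATAAA, 229 bases before the start site, and a glucocorticoid receptor core in Tdo2, such a core in the first Ddc window and in Bhmt, a C/EBP motif in the second Ddc window and a STAT motif in the middle Chdh window. None of the searched motifs is in the windows of Gpt2 and Amdhd1 or in the other two of Chdh.

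Those letters were searched in every window on both strands, except TATAAA, which was read on the gene's strand. The core of the glucocorticoid receptor element, ACANNNTGT, was in 6 of the 32 member windows, 18.8%, against 6.8% of all 32851 windows, in Bhmt, Ddc, Gnmt, Hal, Ivd and Tdo2. In the Tdo2 window it begins 178 bases before the start site, in Bhmt 220 bases and in Ddc 37 bases before it. The STAT motif TTCNNNGAA, the kind of site that the IL-6 effector STAT3 binds, was in 3 member windows, of Chdh, Ivd and Prodh, 9.4% against 8.3% of all windows. The C/EBP motif TTGCNNAA was in 4 windows (12.5% against 10.8%), a part of the HNF1 element, GTTAAT, in 2 (6.2% against 7.1%), and TATAAA in 2 (6.2% against 8.3%). The HNF4 motif CAAAGTCCA and the CREB motif TGACGTCA were in 0 of the 32, and in 0.5% and 1.8% of all windows. No match overlapped a match of another motif. These are descriptions of letters, not of binding.

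During the first 4 h IL-6 moved none of the 32 enzymes past the threshold, an adjusted p under 0.05 in limma over all genes. Of all 18194 genes 0 were lower and 4 higher, 0% and 0.022%. None of the 32 had an unadjusted p under 0.05, against 656 of all genes. The fit compared 4 group means with no term for the hour, so change over the later hours entered its SEs. The SE was 0.84 in Gnmt and 0.66 in Bhmt, while the IL-6 arrays of each had an SD of 0.28. An effect within such SEs would not have passed, so these counts do not show that IL-6 had no early effect. With the hour as a term in a fit of 6 arrays, 0 members were lower and 0 higher as well. The differences between the 4 IL-6 arrays and the controls at 0 and 4 h ran from -0.21 in Kynu to 0.22 in Ftcd, with 22 of 32 above 0 and a median of 0.05, against -0.01 over all genes. Tat, the tyrosine aminotransferase that starts tyrosine breakdown, read 8.97, 8.80, 8.46 and 8.28 at 1, 2, 3 and 4 h of IL-6, and the controls were 9.19 at 0 h and 8.25 at 4 h. The IL-6 values thus lay between the controls on either side of them. Gnmt, the glycine N-methyltransferase that consumes surplus S-adenosylmethionine, read 11.71, 11.50, 11.22 and 11.08 under IL-6, with controls of 11.69 and 10.99. Its IL-6 series overlapped the control range at 3 of 4 hours and exceeded the 0 h control by a margin of hundredths at the remaining one. Tdo2 was at 9.24, 8.81, 8.90 and 8.40, with controls of 8.45 and 8.84, so it began above both and ended slightly below both. Early controls at 0 and 4 h are only 2 arrays, and leaving out the one at 4 h turned the sign of 16 of these small differences and the one at 0 h that of 8.

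At 8, 12 and 24 h, with the hour as a block, 19 of the 32 enzymes were lower under IL-6 plus HGF than in control (limma, adjusted p under 0.05), against 6.45% of all genes. None was higher, against 2.53% of all genes, though 26 of 32, and 4531 of all 18194 genes, had an unadjusted p under 0.05, Cth and Oat among them with higher values. The median difference of the 32 was -0.65, against 0.01 over all genes, and 28 of 32 were below 0. In 25 of 32 the IL-6 plus HGF array was the lower one in 3 of 3 pairs, as in 24.6% of all genes. The 19 past the threshold were all among them, but they were called from these same pairs, so this adds no support. In 3 of 32 the IL-6 plus HGF array was the higher one each time, as in 23.6%. By pathway, the lower genes were 3 of 4 in tyrosine breakdown and 5 of 6 in the tryptophan group, which counts the amine-making Ddc. They were 3 of 4 in histidine breakdown and 4 of 6 in the methionine cycle and transsulfuration. They were also 2 of 3 in choline oxidation and 2 of 4 in the group of aminotransferases, but 0 of 5 in proline, ornithine, lysine and leucine breakdown. The fit has 2 residual degrees of freedom, and leaving out the pair at 8, 12 or 24 h gave 16, 10 or 14 lower members, of which 15, 10 and 12 were among the 19. Without the hour as a block 5 passed, Amdhd1, Chdh, Ddc, Gpt2 and Mat1a.

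**Figure D2:**
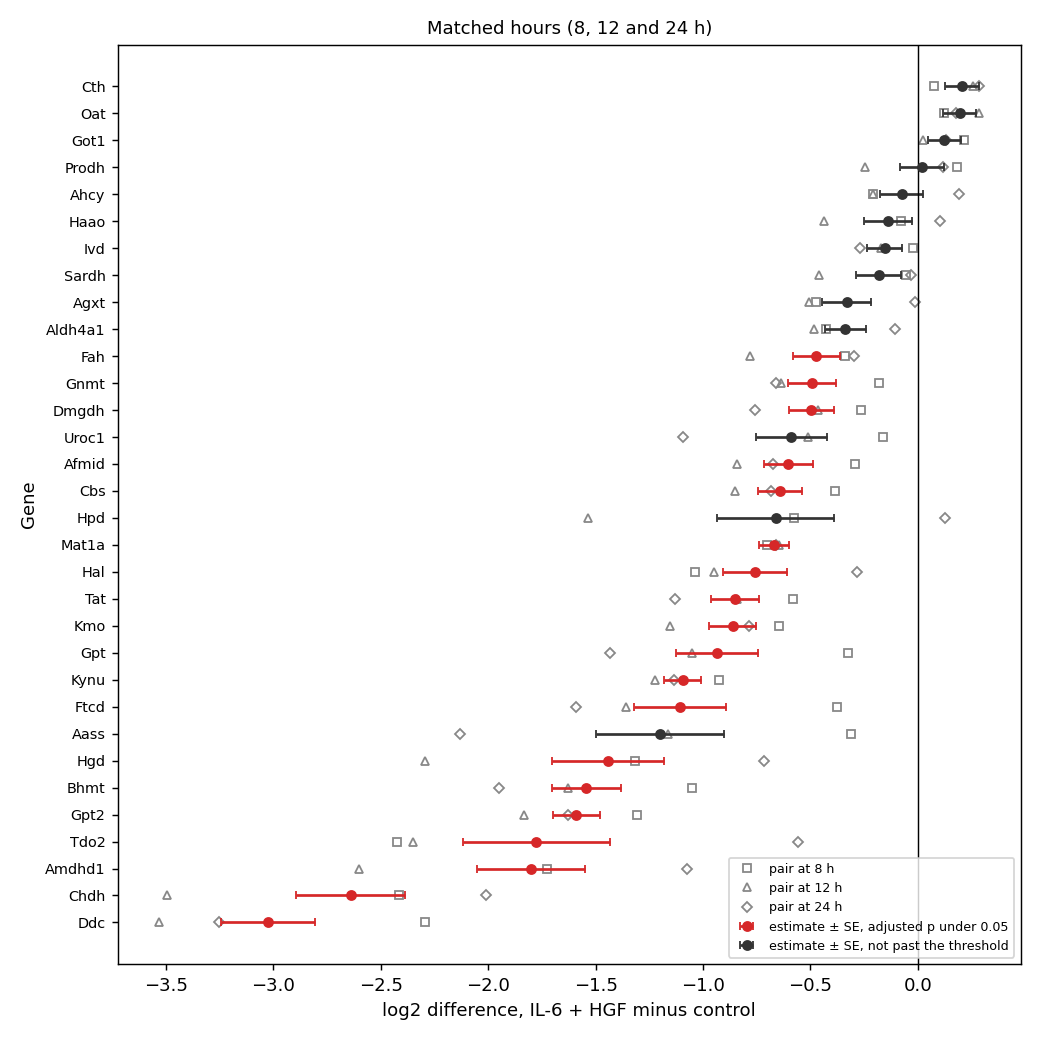
Difference between IL-6 plus HGF and control (horizontal axis, log2 units) for each measured enzyme (vertical axis), with the limma estimate ± SE as a filled point, red where the adjusted p was under 0.05, and the pairs at 8, 12 and 24 h as open symbols. All 19 red points lie left of 0, from Ddc at -3.02 to Fah at -0.47, and in Tdo2 the 24 h pair stands apart from the other 2.

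In the tryptophan group, Ddc had the largest difference of all members. Its 5 controls read 8.88, 9.38, 9.19, 8.85 and 9.51 at 0, 4, 8, 12 and 24 h, and the 4 IL-6 arrays 9.34, 8.98, 9.37 and 8.77. Under IL-6 plus HGF its 8 values had a lowest of 5.32, at 12 h, a median of 6.59 and a highest of 7.86. Every IL-6 plus HGF value was below every control and every IL-6 value. At the matched hours the mean was 6.16 ± 0.79 against 9.18 ± 0.33 (SD over 3 hours), a difference of -3.02 (SE 0.22, 8.14-fold lower, limma adjusted p = 0.00168). A second, dim probe set of Ddc, with a mean of 3.98, differed by 0.02.

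Tdo2 rose along the controls while it was low under both ligands. The controls were 8.45, 8.84, 9.42, 9.47 and 9.60 in order of hour, and the IL-6 plus HGF values ran from 7.00 at 8 h over a median of 7.26 to 9.04 at 24 h. From 5 to 12 h all 7 arrays were below every control and every IL-6 array, and the 24 h array was back within the control range. The difference at matched hours was -1.78 (SE 0.34, 3.43-fold lower, limma adjusted p = 0.0279), made of -2.42, -2.35 and -0.56 at 8, 12 and 24 h. Its 3 probe sets had the same sign.

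Kynureninase, encoded by Kynu, cleaves kynurenine and hydroxykynurenine further down the pathway. It read 7.71, 8.21, 8.26, 8.41 and 8.86 in the controls and 7.08 to 7.80, with a median of 7.58, under IL-6 plus HGF. Here too the control series went up with the hours, and the IL-6 plus HGF series overlapped the controls through the 0 h array alone. Kynu was lower by 1.09 on the log2 scale (SE 0.09, limma adjusted p = 0.00215), with pairs of -0.93, -1.22 and -1.13. Kmo, kynurenine 3-monooxygenase, read 8.04, 8.27, 8.37, 8.38 and 7.86 in the controls and from 7.08 to 8.09, with a median of 7.68, under IL-6 plus HGF. Its groups overlapped, and it was lower by 0.86 (SE 0.11, limma adjusted p = 0.00814). Afmid, the arylformamidase that makes kynurenine, had controls of 6.51, 6.35, 6.61, 7.15 and 7.48, highest at 12 and 24 h, against a range of 6.14 to 6.81 and a median of 6.38. It was lower by 0.60 (SE 0.11, limma adjusted p = 0.0259). Of the 4 probe sets of Afmid, 3 had this sign. Haao, which makes the precursor of quinolinate, did not pass, with a difference of -0.14 (limma adjusted p = 0.495).

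In tyrosine breakdown Tat, Hgd and Fah passed and Hpd did not. Tat fell in control cells as well, from 9.19 at 0 h to 8.25, 7.90, 7.84 and 6.89 at 4, 8, 12 and 24 h. Its IL-6 plus HGF values were between 5.76 and 7.92 with a median of 7.37, all below the 4 IL-6 arrays but overlapping the later controls. At matched hours the pairs were -0.58, -0.84 and -1.13, a difference of -0.85 (SE 0.11, 1.80-fold lower, limma adjusted p = 0.00897). Hgd, homogentisate dioxygenase, read 8.20, 8.44, 8.64, 8.81 and 6.49 in the controls, and from 5.78 to 8.16 with a median of 7.21 under IL-6 plus HGF. The groups overlapped only through the 24 h control, which differed by -2.32 from the 12 h control. Hgd was 2.72-fold lower (log2 -1.44, SE 0.26, limma adjusted p = 0.0230), and the pairs were -1.32, -2.29 and -0.72. A second probe set of Hgd went the other way, by 0.13. Fah, the fumarylacetoacetase that ends the pathway, read 10.00, 9.90, 9.99, 10.09 and 9.71 in the controls, and 9.30 to 9.92 with a median of 9.63 under IL-6 plus HGF. Its groups overlapped, mostly through the low 24 h control, and it was lower by 0.47 (SE 0.11, limma adjusted p = 0.0488). Hpd, 4-hydroxyphenylpyruvate dioxygenase, had controls of 9.67, 8.89, 8.71, 8.92 and 6.34 and an IL-6 plus HGF range of 6.47 to 8.67, so its lowest value of all was a control. It had pairs of -0.58, -1.53 and 0.13, and a difference of -0.66 (limma adjusted p = 0.195).

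Histidine breakdown starts with Hal, histidine ammonia-lyase, continues with Uroc1, urocanase, and Amdhd1, imidazolonepropionase, and ends with Ftcd, which passes the formimino group to tetrahydrofolate. Amdhd1 read 4.79, 6.07, 6.50, 6.95 and 6.05 in the controls and between 4.35 and 5.78, with a median of 4.95, under IL-6 plus HGF. The 0 h control was as low as the IL-6 plus HGF arrays, and the 4 later controls were above all of them. The difference was -1.80 (SE 0.25, 3.48-fold lower, limma adjusted p = 0.0110), with pairs of -1.73, -2.60 and -1.07. Ftcd read 10.35, 10.41, 10.50, 10.82 and 9.74 in the controls and from 8.15, at 24 h, to 10.57, with a median of 10.04, under IL-6 plus HGF. The groups overlapped before 12 h, and the 12 and 24 h arrays were below every control. Ftcd was lower by 1.11 (SE 0.22, limma adjusted p = 0.0289), and its pairs widened from -0.38 over -1.36 to -1.59. Hal had controls of 5.18, 5.68, 6.14, 6.04 and 5.18 against 4.90 to 5.48 with a median of 5.15, an overlap made by the controls at 0 and 24 h. It was lower by 0.76 (SE 0.15, limma adjusted p = 0.0293), while Uroc1, with -0.59, missed the threshold (limma adjusted p = 0.0807). Hal and Amdhd1 were dim, with mean signals near the 34th percentile of all genes, and a filter at the 40th percentile leaves them out.

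The methionine cycle begins with Mat1a, the liver methionine adenosyltransferase. Its controls were 8.29, 8.01, 8.16, 8.03 and 7.96, and its IL-6 plus HGF values ran from 7.30 to 7.90 with a median of 7.52, so that the groups did not overlap. The pairs were nearly equal, -0.70, -0.65 and -0.66, and the difference was -0.67 (SE 0.07, 1.59-fold lower, limma adjusted p = 0.00509). Bhmt read 9.51, 9.37, 9.46, 9.32 and 7.85 in the controls, and from 5.90 over a median of 8.44 to 9.40 under IL-6 plus HGF. The highest of these was the 6 h array and the lowest the 24 h array. Bhmt was lower by 1.54 on the log2 scale (SE 0.16, 2.91-fold, limma adjusted p = 0.00495), with pairs of -1.05, -1.63 and -1.95. Cbs, cystathionine beta-synthase, the entry to transsulfuration, had controls of 9.18, 9.18, 9.34, 9.44 and 9.13 and an IL-6 plus HGF range of 8.45 to 9.29 with a median of 8.97, with the 12 and 24 h arrays lowest. It was lower by 0.64 (SE 0.10, limma adjusted p = 0.0166). In Gnmt both series went down along the hours. The controls read 11.69, 10.99, 10.25, 9.77 and 7.48, and the IL-6 plus HGF arrays from 10.80 at 5 h to 6.82 at 24 h. Gnmt was lower by 0.49 (SE 0.11, limma adjusted p = 0.0442), beside a change of -4.21 along its own controls from 0 to 24 h. Where the 4 group means over 17 arrays were used in place of the paired hours, its value was 0.42 and did not pass (limma adjusted p = 0.740). Ahcy, which hydrolyses S-adenosylhomocysteine, differed by -0.08 and Cth, cystathionine gamma-lyase, by 0.20, and neither passed.

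Choline oxidation supplies the betaine used by Bhmt. Chdh, choline dehydrogenase, read 7.78, 8.22, 8.33, 8.20 and 7.39 in the controls, 8.49, 7.76, 8.03 and 7.50 under IL-6, and between 4.71 and 6.74 with a median of 5.78 under IL-6 plus HGF. No IL-6 plus HGF array reached the lowest control or the lowest IL-6 array. At matched hours the means were 5.34 ± 0.60 and 7.98 ± 0.51 (SD over 3 hours), a difference of -2.64 (SE 0.25, 6.24-fold lower, limma adjusted p = 0.00384). Dmgdh, dimethylglycine dehydrogenase, read 9.33, 9.00, 8.77, 8.62 and 8.17 in the controls and 7.42 to 9.04, with a median of 8.58, under IL-6 plus HGF, and the groups overlapped. It was lower by 0.50 (SE 0.11, limma adjusted p = 0.0377). Sardh, sarcosine dehydrogenase, which performs the next step, differed by -0.18 and did not pass (limma adjusted p = 0.333).

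Gpt2 rose along the controls, 10.84, 11.34, 11.55, 11.69 and 12.20, and ran from 9.85 to 10.92 with a median of 10.36 under IL-6 plus HGF. The 0 h control was exceeded by the 6 h array of IL-6 plus HGF, and the other 7 were below all controls. The difference was -1.59 (SE 0.11, 3.01-fold lower, limma adjusted p = 0.00168), and the 4 probe sets of Gpt2 had this sign. Gpt, the cytosolic alanine aminotransferase, had controls of 10.20, 10.09, 10.02, 10.17 and 8.87 and ran from 7.43 to 9.98 with a median of 9.65 under IL-6 plus HGF. Apart from the 24 h control, every control was above every IL-6 plus HGF array. Gpt was lower by 0.94 (SE 0.19, limma adjusted p = 0.0338), with pairs of -0.32, -1.05 and -1.44. Agxt, the peroxisomal alanine-glyoxylate aminotransferase, differed by -0.33 and Got1, the cytosolic aspartate aminotransferase, by 0.12, and neither passed.

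The 5 enzymes of proline, ornithine, lysine and leucine breakdown had no member past the threshold. Aass, the first enzyme of lysine breakdown, had the largest difference among them, -1.20 (SE 0.30, limma adjusted p = 0.0561). Its controls were 9.94, 9.01, 8.54, 8.23 and 8.68, and its IL-6 plus HGF values went from 8.86 at 5 h to 6.55 at 24 h, with pairs of -0.31, -1.16 and -2.13. Aass passed in 3 alternatives: when dim genes were left out, when the 8 h pair was left out, and with a spline of the hour over 17 arrays. Oat, ornithine aminotransferase, differed by 0.20, Prodh, proline dehydrogenase, by 0.02, Ivd, isovaleryl-CoA dehydrogenase, by -0.15 and Aldh4a1, which completes proline oxidation, by -0.34.

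In the plot of single genes, the gap between red and grey lines was open at 5 h, 1 h after HGF addition, in Ddc, Chdh and Tdo2. No control was taken at 5 h, and the IL-6 array at 4 h was already below the 4 h control in these genes. It read 8.77 against 9.38 in Ddc, 7.50 against 8.22 in Chdh and 8.40 against 8.84 in Tdo2. The start of the gap therefore cannot be dated to the addition of HGF.

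**Figure D3:**
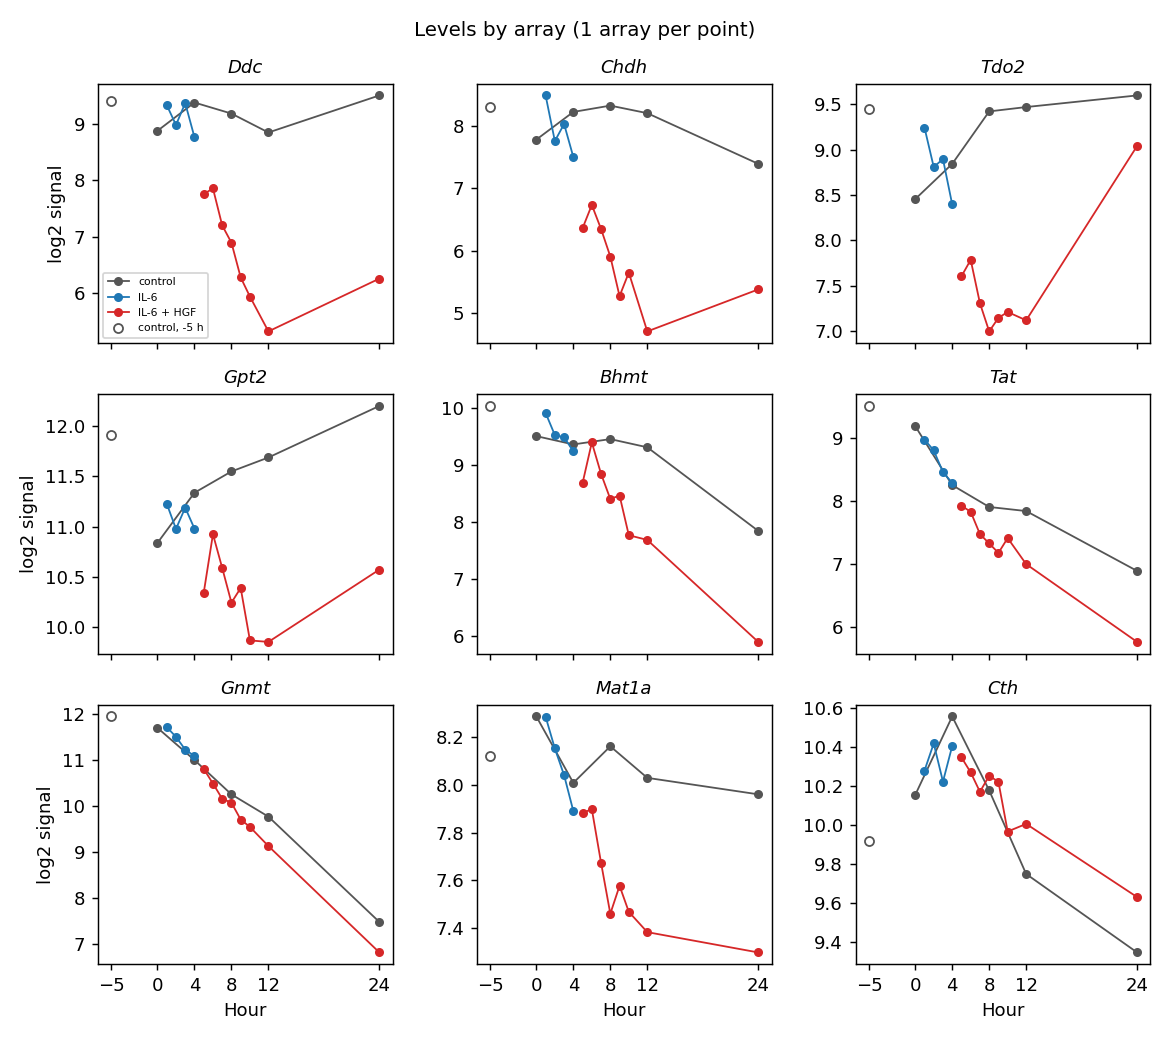
Log2 signal (vertical axis, own scale in each panel) against hour (horizontal axis) for 9 enzymes, 1 array per point, in control (grey), IL-6 (blue) and IL-6 plus HGF (red) cells, with the control at -5 h as an open circle. The red points of Ddc, Chdh and Mat1a lie below every grey point, those of Gnmt run close under a control line that itself changes by -4.21 from 0 to 24 h, and Cth is shown as a member that did not pass.

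The 8 hours of IL-6 plus HGF also gave the hour from which each enzyme stayed below all 5 controls through 12 h. At 5 h, 1 h after HGF was added, Tdo2, Ddc, Mat1a and Chdh were below all 5 controls and were so at each hour through 12 h. The IL-6 array at 4 h was already below all 5 controls in Tdo2, Ddc and Mat1a, but not in Chdh. Gpt2 stayed below from 7 h on, Fah, Kmo, Kynu and Aass from 8 h on, and Bhmt from 10 h on, although Gpt2, Fah, Kmo and Kynu had also been below at 5 h and not at 6 h. The list of nuclear RNAs had its lowest mean under IL-6 plus HGF on that 6 h array, 7.25, and its part in these hours was not tested. At 10 h Fah equalled its lowest control to the third decimal. A further 7 (Afmid, Hal, Amdhd1, Ftcd, Cbs, Dmgdh and Aldh4a1) were below all controls at 12 h but not at 10 h, with some earlier arrays below as well. The other 15 were not below all controls at 12 h. Over all 8 arrays, 24 h included, 3 members were below every control, Ddc, Mat1a and Chdh, against 1.97% of all genes, and none was above every control (1.28%). With the 4 IL-6 arrays as the comparison, 13 members were lower on every IL-6 plus HGF array, against 3.86% of all genes, and none was higher on every one (3.34%). These 13 were Tat, Hpd, Hgd, Ddc, Uroc1, Gnmt, Ahcy, Chdh, Dmgdh, Agxt, Gpt, Gpt2 and Aass, and both conditions and hours differ in that contrast.

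The gap between the conditions was smallest at 8 h over the list as a whole. At 8 h 8 members were lower by at least 1 log2 unit, against 0.616% of all genes, at 12 h 13 (1.35%) and at 24 h 11 (1.18%). The medians over the 32 were -0.38, -0.84 and -0.67, with 0 or 0.005 over all genes. Of the 19 lower members, 16 had a larger difference at 12 than at 8 h, Hal, Mat1a and Tdo2 being the others. From 12 to 24 h the difference became smaller in 12 (Afmid, Amdhd1, Cbs, Chdh, Ddc, Fah, Gpt2, Hal, Hgd, Kmo, Kynu and Tdo2) and larger in 7 (Bhmt, Dmgdh, Ftcd, Gnmt, Gpt, Mat1a and Tat). With 1 array per condition and hour these changes have no replicate check.

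Both conditions moved between 12 and 24 h. In control cells 7 members were lower by at least 1 log2 unit at 24 h than at 12 h, against 0.758% of all genes, namely Hpd (-2.58), Hgd (-2.32), Gnmt (-2.28), Bhmt (-1.47), Gpt (-1.31), Ftcd (-1.08) and Haao (-1.07), and none was higher by as much (1.53% of all genes). Under IL-6 plus HGF there were 6, against 0.643% of all genes. In 4 genes, Gnmt, Bhmt, Gpt and Ftcd, the drop exceeded 1 in both conditions. Tdo2 alone was higher by at least 1, with 1.92 under IL-6 plus HGF, against 1.72% of all genes, and by 0.13 in control. Over the same interval the mean of the 8 hepatocyte markers went from 12.59 to 12.01 in control and from 12.25 to 11.62 under IL-6 plus HGF, and its part in the drop was not tested.

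**Figure D4:**
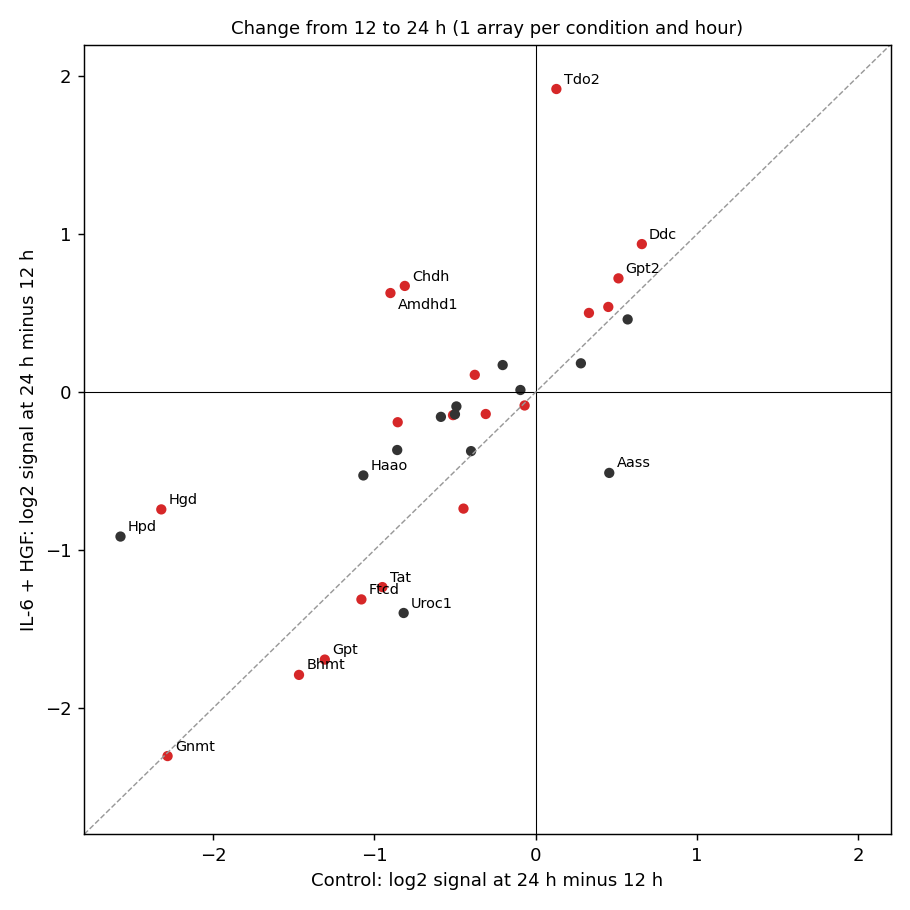
Change of log2 signal from 12 to 24 h in control cells (horizontal axis) against IL-6 plus HGF cells (vertical axis), 1 point per enzyme, red for the 19 members lower at matched hours, with the dashed line marking equal change. Gnmt lies near the line at -2.28 and -2.31, Hpd and Hgd changed more in control cells, and Tdo2 stands alone at the top with 1.92.

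Slopes over the hours describe the same movement without pairing. Across the 8 IL-6 plus HGF arrays, 19 members fell with the log2 of the hour, against 4.84% of all genes, and 2 rose, against 6.25%. The steepest falls per doubling of the hour were in Gnmt at -1.74 (SE 0.11, limma adjusted p = 5.29e-05), Bhmt at -1.44 (SE 0.16, limma adjusted p = 0.000553) and Aass at -1.14 (SE 0.11, limma adjusted p = 0.00023). Gpt at -1.08 and Hpd at -1.02 followed. The 2 that rose were Oat by 0.40 (SE 0.09, limma adjusted p = 0.0135) and Afmid by 0.24 (SE 0.06, limma adjusted p = 0.0426). Without the 24 h array 9 fell and none rose, 7 of the 9 being among the 19 and the others Chdh and Ddc. Tdo2, with a slope of 0.55 over 8 arrays, had -0.50 without that array and passed in neither fit.

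Control cells drifted too, in both directions. Along the 5 controls 3 members fell with the log2 of the hour plus 1, against 1.46% of all genes: Tat by 0.46, Uroc1 by 0.32 and Dmgdh by 0.24. Another 3 rose, against 2.14%, namely Gpt2 by 0.28, Tdo2 by 0.27 and Kynu by 0.23 (limma adjusted p between 0.0164 and 0.0409 over the 6). In these 3 the control at -5 h, which was outside this fit, was above the 0 h control by 1.07, 0.99 and 0.475. Gnmt, the member with the deepest control slope, -0.80, missed the threshold (limma adjusted p = 0.0537). These calls rest on single arrays, since without the control at 4 h, or that at 8 h, none was left in either direction.

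The slope was more negative under IL-6 plus HGF than in control for 6 members, Aass, Bhmt, Dmgdh, Gpt, Tat and Uroc1, against 0.682% of all genes, and less negative for none (0.539%). The differences in slope ran from -0.55 in Dmgdh (SE 0.09, limma adjusted p = 0.00979) to -1.32 in Bhmt (SE 0.25, limma adjusted p = 0.0248). Without the 0 h control 0 passed, without the 24 h control 15, and without the 6 h or the 24 h array of IL-6 plus HGF 2. Without that 24 h array only 1 of the 6 was kept, Aass, and the other call was Ddc. Both slopes used the log2 of the hour plus 1, unlike the earlier slopes under IL-6 plus HGF alone. The controls began at 0 h, whereas no IL-6 plus HGF array was taken before HGF was added. The slopes therefore covered unlike hours, so such a difference cannot be assigned to the ligands. The part of the unlike hours in it was not tested.

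Whether the difference from control itself changed between the first 4 h and the later hours was tested as a contrast over 17 arrays. No member passed in limma, against 0.011% of all genes in each direction, and 10 of 32 had an unadjusted p under 0.05, against 1420 of all genes. The largest of these were -2.48 in Ddc (SE 0.67, adjusted p = 0.233), -2.16 in Tdo2 (SE 0.51, adjusted p = 0.160) and -2.12 in Chdh (SE 0.56, adjusted p = 0.212), in limma. This fit had no term for the hour, so change over the hours within a group entered these SEs. A lower level under IL-6 plus HGF was therefore not shown by it to differ from the early effect of IL-6.

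The control at -5 h was set against the 5 later controls. None of the 32 passed in limma, against 0% of all genes in each direction, and 2 had an unadjusted p under 0.05, Fah and Aass, against 1018 of all genes. The values at -5 h were above the later mean in 25 of 32, with a median difference of 0.34 against 0.01 over all genes. Gnmt was 1.90 above, at 11.94, Tat 1.50 above, at 9.51, Hpd 1.49 above, at 10.00, and Aass 1.33 above, at 10.21. The later mean includes the drift of the controls up to 24 h. Against the 0 h control alone Gnmt was above by 0.25, Tat by 0.32, Hpd by 0.33 and Aass by 0.27, with a median of 0.26 over the 32. The largest differences from the 0 h control were 1.07 in Gpt2, 0.99 in Tdo2, 0.745 in Amdhd1 and 0.744 in Hal, and 4 members were below it. Against the controls at 0 and 4 h only, 7 of the 32 differences turned their sign. For Tat, 9.51 at -5 h and 9.19 at 0 h were followed by 8.25 and lower, so the -5 h array continued the series of the controls upward. A list of 9 glucocorticoid-induced genes, among them Fkbp5, Tsc22d3 and Per1, had a mean of 10.87 at -5 h and 10.52, 10.27, 10.15, 10.13 and 9.93 at 0 to 24 h. It was 9.82 to 10.41 under IL-6 plus HGF, lower than control by 0.14, 0.28 and 0.11 at the matched hours, and its part in the enzymes' levels was not tested.

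Other genes of the same pathways were read from a list of 71 further enzymes, of which 61 were measured. At matched hours 27 of the 61 were lower, against 6.45% of all genes, and 1 was higher, against 2.53%. The higher gene was Aldh1l1, which oxidises 10-formyltetrahydrofolate, by 0.49 (SE 0.10, limma adjusted p = 0.0336). The median of the 61 was -0.29, against 0.01 over all genes. The largest differences were in cysteine and taurine metabolism, with Csad, cysteine sulfinate decarboxylase, at -2.12 (SE 0.22, limma adjusted p = 0.00495), and Cdo1, cysteine dioxygenase, at -1.71 (SE 0.29, limma adjusted p = 0.0178). Bhmt2, which methylates homocysteine with S-methylmethionine, was at -1.44 (SE 0.11, limma adjusted p = 0.00215). Kyat1, a kynurenine aminotransferase, at -0.97, Agxt2, a mitochondrial alanine-glyoxylate aminotransferase, at -0.96, and Gstz1, which isomerises maleylacetoacetate between Hgd and Fah, at -0.91, had adjusted p between 0.00567 and 0.0105 in limma.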

How the data were processed

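RNA of cultured mouse hepatocytes was read on 18 one-colour Affymetrix arrays of 45101 probe sets, after RNeasy extraction and one-cycle biotin labelling, per the labels' protocols. The authors deposited log2 signals between 2.10 and 15.05; how these were summarized and normalized is not given in the sources used here. After sorting, no array was further than 0.118 from the mean array, so no scaling was added. The number of arrays limits the precision. All columns belonged to a sample.

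Of the probe sets 34958 had 1 gene symbol, 932 several and 9211 none. For each of 18194 genes the probe set with the highest mean was kept, without a filter. Chdh, Cbs, Gpt, Gpt2 and Uroc1 were read by sets that may bind related transcripts. Groups came from the stimulus and hour in the labels. Fits used limma 3.58.1 in R 4.3.3 (lmFit, eBayes), and p-values were adjusted by Benjamini-Hochberg over the 18194 genes, with 0.05 as the threshold. The fits were also tried on simulated data, but no outcome of that is reported here, so it lends no support to the calls. The IL-6 comparison and the change of effect used 17 arrays as 4 group means, the matched hours 6 arrays with the hour as a block, and the slopes 8, 13 and 5 arrays. The pairing comes from the hours. Alternatives were quantile normalization, centring on the median, leaving out genes under the 40th percentile, robust variance with an intensity trend, the mean of probe sets, a size of at least 1 log2, other fits over time (splines 4.3.3, 3 degrees of freedom) and leaving out arrays.

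All 35 members are named, and the other genes are the 6 with the largest differences past the threshold, the checks Socs3 and Alb and examples of the glucocorticoid list; Aldh1l1 was added after its value was seen, as the single higher gene. The members and lists were chosen with earlier results of these data known. Promoter windows came from RefSeq.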

Additional observations from a re-analysis of the deposited data

Results flagged for a closer look

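In 96 sets of values, 1 per enzyme and stimulus group, the array at one end was set against the range of its group with Dixon's test. It stood apart in 12, and 11 of the 12 were 24 h arrays. The nominal rate of about 1 in 20 sets holds for replicates. These values are hours of a course that drifts, the 24 h array lies far from the 12 h array, and the sets share the same arrays. That rate therefore gives no measure of chance here. Among the controls, the 24 h array was far below the others in Hpd (6.34, next 8.71), Hgd (6.49, next 8.20), Bhmt (7.85, next 9.32) and Gpt (8.87, next 10.02). Under IL-6 plus HGF, the 24 h array was the lowest by a wide gap in Tat (5.76, next 7.00), Haao (5.87, next 6.40), Uroc1 (5.87, next 7.27) and Ftcd (8.15, next 9.46). The same held there for Gnmt (6.82, next 9.13) and Gpt (7.43, next 9.12). Tdo2 under IL-6 plus HGF was the single case with a high 24 h array, 9.04 against 7.79 for the next. In the IL-6 group Cbs at 4 h read 9.28, with the other 3 arrays at 9.22, a gap of hundredths of a log2 unit. The hours from 12 to 24 h hold no array, so the course in between was not analysed here.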

How the results depend on the processing

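The matched-hours count of 19 lower members became 16 with quantile normalization, 17 with centring and with the mean of probe sets, 18 without dim genes, 14 with an intensity trend and 22 with a spline, which also called 1 higher (Got1). It became 9 at a size of at least 1 log2, 5 with no hour block and 11 with 4 group means, and 10 to 16 when a pair was left out. Gnmt at matched hours turned to 0.42 with 4 group means. The 19 falling slopes under IL-6 plus HGF became 7 at a size of at least 1, 9 without the 24 h arrays and 9 to 21 when an array was left out. The 2 rising became 0, 0 and 0 to 2 there, and 1 with quantile normalization, centring or the mean of probe sets. The 6 differences in slope became 1 at that size, 2 on plain hours and 0 to 15 when an array was left out. The 3 falling controls became 0 at that size, 7 with centring and without dim genes, 5 with an intensity trend or without 24 h, 12 on plain hours and 0 to 5 when an array was left out. The 3 rising controls became 0 at that size, 5 on plain hours or without 24 h, and 0 to 5. The cause was not tested. Without the 12 h pair the calls of Afmid, Cbs, Dmgdh, Fah, Ftcd, Gnmt, Gpt, Hal and Tdo2 were lost, and that fit has fewer arrays. No deposited signal over background was used, so dim members (Hal, Amdhd1) are the least certain.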
